A study of Oryza sativa and Arabidopsis thaliana with 16 samples.

Results

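The 7 genes AT2G41730, AT3G26510, AT4G01460, MT1C, CHX16, MYBC1 and WRKY22 of Arabidopsis thaliana were picked for their change in shoots after nitrogen was added, and each was read by 1 probe set of its own on the Affymetrix ATH1 array. They are 7 of the 13350 Arabidopsis genes that a probe set names alone, and of 31255 such genes over the Arabidopsis and rice arrays of the series. All plants were wild type and 13 days old, raised in hydroponic culture with 0.5 mM ammonium succinate as the nitrogen source and 3 mM sucrose at 22 °C. Nitrogen-treated plants received 20 mM KNO3 together with 20 mM NH4NO3 for 2 h at the start of the light period, and control plants received 20 mM KCl for the same time. The 4 groups were nitrogen and KCl shoots and nitrogen and KCl roots, with 2 arrays each, labelled as biological replicates. Nitrate, ammonium, chloride and the total of added salt all differed between treatments and cannot be told apart. The tissue labels say root or shoot, while the harvest and extraction protocols speak of whole plants.

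Nitrate and ammonium are both nutrients and signals in plants, and nitrate in particular switches transcription within minutes to hours, in leaves as well as in roots. The best known early targets are transporters, nitrate and nitrite reductases and the enzymes that supply carbon skeletons and reducing power, and none of these is among the 7 genes. Of the 7 genes, 3 encode transcription regulators: WRKY22 acts in immune signalling downstream of mitogen-activated protein kinases, MYBC1 is a GARP-type MYB-like factor linked to freezing tolerance, and AT4G01460 encodes a basic helix-loop-helix (bHLH) factor. CHX16 belongs to the cation/H+ exchangers, membrane proteins that move potassium and other monovalent cations. MT1C encodes a metallothionein, a small cysteine-rich protein that binds copper and other metals. AT3G26510 encodes a protein with a PB1 (octicosapeptide/Phox/Bem1p) domain, a module through which proteins bind each other. AT2G41730 encodes a protein of unknown function whose transcript is known to rise in plants short of oxygen.

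Values are RMA log2 signal, so a difference of 1 is a doubling, and levels are compared within a gene only. The arrays of a group correlated over all probe sets at 0.987 (nitrogen) and 0.956 (KCl) in roots and at 0.981 and 0.993 in shoots. The root KCl arrays stood apart. Their 75th percentile was lower, at 6.83 to 6.92, against 7.16 to 7.22 on the other 6 arrays. Their 25th percentile was higher, at 4.69 to 4.75, against 4.53 to 4.58. The root differences of the 7 genes are therefore also given with single root arrays left out. Leaving out 1 array does not remove this shift, and its part in the root differences of dim or bright probe sets was not tested. In KCl plants the labelled tissues matched their markers: all 6 measured photosynthesis genes were lower and all 11 measured root peroxidase genes higher in roots than in shoots. In nitrogen plants the photosynthesis genes were again lower in roots. Of the peroxidase genes, AT5G58400 (4.45 in roots, 4.57 in shoots) and AT2G39040 (4.80 and 4.89) were then slightly lower in roots, and the others higher. None of these 17 genes was called in shoots after nitrogen. The photosynthesis genes averaged 10.80 to 11.02 on nitrogen shoot arrays and 11.003 to 11.192 on KCl shoot arrays, and the peroxidase genes averaged 5.03 to 5.08 on nitrogen shoot arrays and 5.15 to 5.29 on KCl shoot arrays. In roots, where 11.4% of all probe sets were called, the photosynthesis gene PSB27 rose by 1.63, the peroxidase gene AT5G06730 rose by 0.96, and the peroxidase genes AT5G58400, AT3G49960 and AT2G39040 fell (-0.92, -1.05 and -1.06). The peroxidase genes averaged 6.59 to 7.0 on nitrogen root arrays and 7.20 to 7.26 on KCl root arrays. The part of these shifts in the root results was not tested. In whole-tissue RNA, fewer cells of a type and less RNA per cell cannot be told apart.

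In nitrogen-treated shoots, 2 of the 7 genes were higher and 5 lower than in KCl shoots, and in none of the 7 did the arrays of the groups overlap. Since the genes were chosen on this contrast, these differences are a description and are given without a test. Over all 22746 probe sets, 0.637% were called in shoots (limma, adjusted p under 0.05), and the groups did not overlap for 34.4%. The plot of signal by array shows every value behind the following description.

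**Figure D1:**
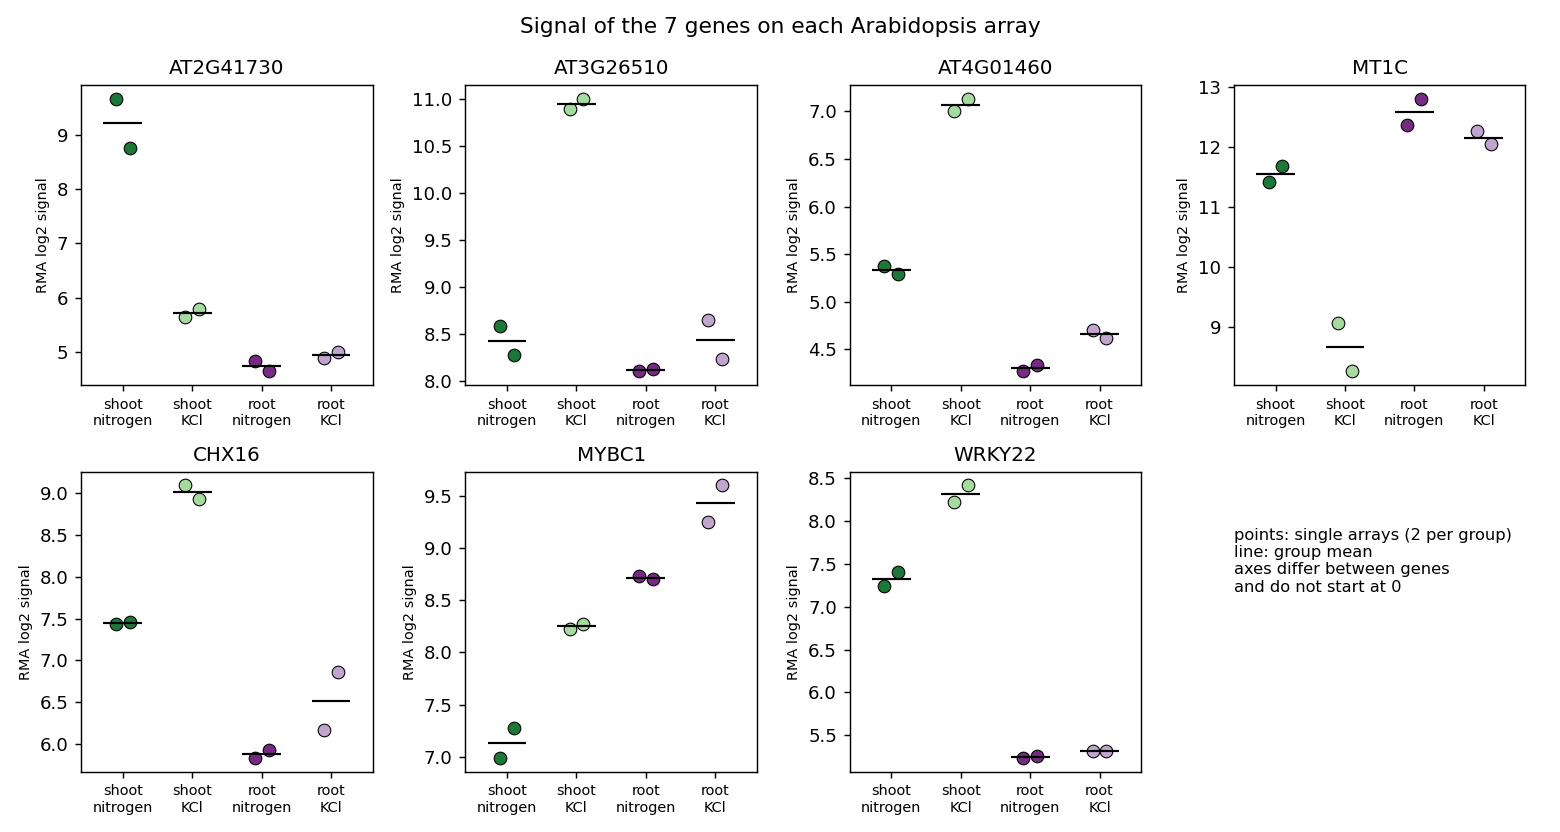
RMA log2 signal (vertical axis, scaled to each gene) of the 7 genes on each of the 8 Arabidopsis arrays, by group (horizontal axis); points are arrays and lines are group means. AT2G41730 and MT1C sit higher on both nitrogen shoot arrays than on both KCl shoot arrays, and the other 5 genes lower.

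The largest difference was that of AT2G41730, the gene of unknown function. Its signal was 9.66 and 8.76 on the nitrogen shoot arrays, against 5.64 and 5.80 on the KCl shoot arrays. Both nitrogen values lay far above the controls, although they differed from each other more than those of any other gene of the set in nitrogen shoots. The difference was 3.49 ± 0.28 (log2, nitrogen minus KCl, ± SE), an 11.3-fold higher signal. This SE, like those of the other genes, rests on a variance estimated over both tissues and is not the spread of the shoot arrays. The SD was 0.64 in nitrogen shoots and 0.11 in KCl shoots. The difference ranked 14 among all positive shoot differences on the array. Without the first nitrogen shoot array the difference was 3.04, and without the second 3.94. The suffix of this probe set (x_at) marks probes that may also bind other transcripts, so the signal is not certain to come from AT2G41730 alone.

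MT1C, the metallothionein gene, was the other gene with higher values. It gave 11.41 and 11.69 on nitrogen shoot arrays, against 9.07 and 8.26 on KCl shoot arrays. Here the controls were the more variable group, with an SD of 0.58 against 0.20 in nitrogen shoots. The difference was 2.89 ± 0.29 (log2, ± SE), a 7.40-fold higher signal and rank 25 among positive differences. It was 3.29 without the first KCl shoot array and 2.48 without the second.

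AT3G26510, the PB1 domain gene, had the largest negative difference of the set. Its signal was 8.58 and 8.27 in nitrogen shoots, against 10.89 and 11.01 in KCl shoots. The difference of -2.52 ± 0.18 (log2, ± SE) is a 5.73-fold lower signal, and only 1 probe set on the array had a lower value. The bHLH gene AT4G01460 gave 5.38 and 5.29 in nitrogen shoots, against 7.0 and 7.13 in KCl shoots. Its arrays agreed closely within each group, with SDs of 0.06 and 0.09, beside a difference of -1.73 ± 0.12. The exchanger gene CHX16 gave 7.44 and 7.46 in nitrogen shoots, against 9.09 and 8.93 in KCl shoots. That is a difference of -1.56 ± 0.22, or a 2.95-fold lower signal.

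MYBC1 and WRKY22, both encoding transcription factors, had the smallest differences of the 7. MYBC1 was at 6.99 and 7.27 in nitrogen shoots, against 8.23 and 8.27 in KCl shoots, a difference of -1.12 ± 0.16. WRKY22 was at 7.24 and 7.40 in nitrogen shoots, against 8.23 and 8.42 in KCl shoots, a difference of -1.0 ± 0.13, or 2.00-fold lower. These lie further down the order of all probe sets, at rank 97 and rank 130 among negative differences, where AT4G01460 was at 16 and CHX16 at 24.

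The root difference uses no array on which the genes were chosen, while its error comes from a variance estimated over both tissues. In roots, 1 of the 7 genes, MYBC1, passed the test and fell, and the other 6 did not pass it. Over all probe sets 11.4% were called in roots, so 1 of 7 is close to the background share and is not a result about the set. All 7 genes had root groups that did not overlap, as had 57.3% of all probe sets. The values were lower with nitrogen in 6 genes and higher in MT1C. A non-overlapping lower value was found for 27.3% of all probe sets, and 4.44% were called lower. The median root difference of the 7 was -0.33, against 0.02 over all probe sets, and the median absolute difference 0.36 against 0.29.

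MYBC1 had 8.74 and 8.70 on nitrogen root arrays, against 9.25 and 9.60 on KCl root arrays. It fell by 0.71 ± 0.16 on the log2 scale (limma, adjusted p = 0.0396, 95% interval -1.10 to -0.33), or 1.64-fold. In the 6 other fits that can move the estimate, the difference lay between -0.88 and -0.54. The call was lost in 12 of all 16 other fits (adjusted p from 0.0136 to 0.187), among them the fit to the 4 root arrays alone (adjusted p = 0.146). The adjusted p was 0.149 and 0.187 without the first and the second nitrogen root array, and 0.0136 and 0.0613 without the first and the second KCl root array. It was 0.0535 without either nitrogen shoot array and 0.0887 without either KCl shoot array, where the difference itself did not move.

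CHX16 was at 5.83 and 5.93 on nitrogen root arrays, against 6.17 and 6.86 on KCl root arrays, and the 2 controls lay far apart. The difference was -0.64 ± 0.22 (adjusted p = 0.106, 95% interval -1.16 to -0.11). Without the first KCl root array it was -0.99 and passed (adjusted p = 0.00718), and without the second it was -0.29. AT4G01460 was at 4.27 and 4.34 on nitrogen root arrays, against 4.70 and 4.62 on KCl root arrays (-0.36 ± 0.12, adjusted p = 0.0966). Both nitrogen values are below the 25th percentile of those arrays, which was 4.53 to 4.54, and RMA values carry no detection call. AT3G26510 was at 8.10 and 8.13 on nitrogen root arrays, against 8.65 and 8.23 on KCl root arrays (-0.33 ± 0.18, adjusted p = 0.261).

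The 3 other genes had wide intervals around 0 or small differences in roots. MT1C was at 12.37 and 12.81 on nitrogen root arrays, against 12.27 and 12.05 on KCl root arrays (0.43 ± 0.29, adjusted p = 0.346, 95% interval -0.25 to 1.11). AT2G41730 was at 4.85 and 4.65 on nitrogen root arrays, against 4.89 and 5.01 on KCl root arrays (-0.20 ± 0.28, adjusted p = 0.641, 95% interval -0.86 to 0.45). WRKY22 was at 5.23 and 5.26 on nitrogen root arrays, against 5.31 and 5.32 on KCl root arrays (-0.07 ± 0.13, adjusted p = 0.737, 95% interval -0.37 to 0.23). After quantile normalization the root difference was -0.06 for AT2G41730, -0.57 for AT3G26510 and -0.18 for AT4G01460. With arrays centred on their medians it was -0.16 for WRKY22 and -0.45 for AT4G01460. These values lie outside the ranges that follow, while those of MT1C (0.40 and 0.33) lie within its range. With single root arrays left out, the difference lay between 0.21 and 0.65 for MT1C, between -0.30 and -0.11 for AT2G41730 and between -0.08 and -0.06 for WRKY22. It lay between -0.53 and -0.12 for AT3G26510 and between -0.40 and -0.31 for AT4G01460, and none of these 5 genes was called in any of the 16 other fits.

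**Figure D2:**
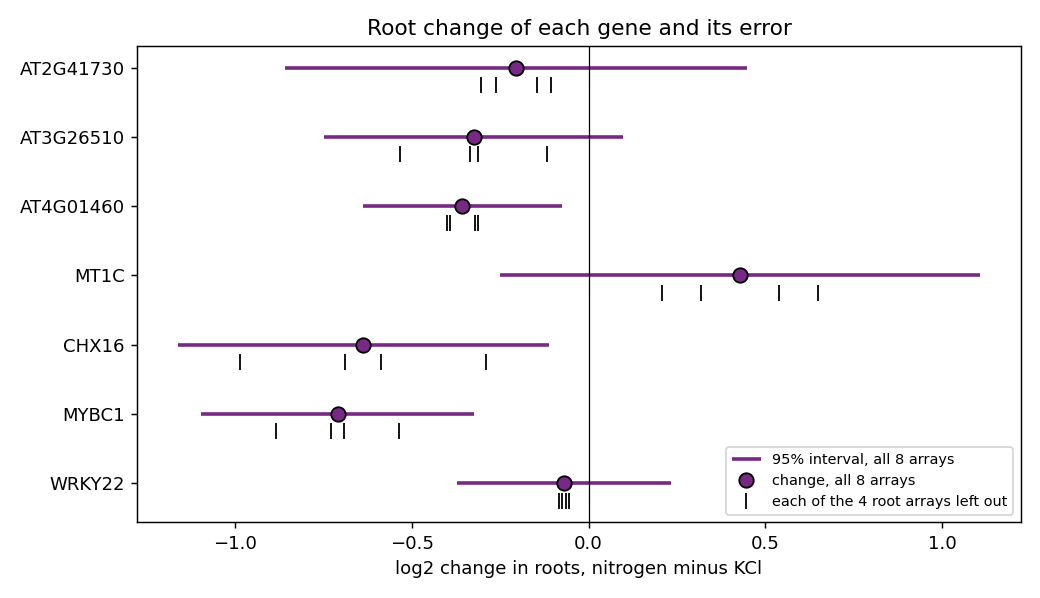
Log2 difference in roots, nitrogen minus KCl (horizontal axis), for each gene (vertical axis); circles are estimates from all 8 arrays, bars 95% intervals without adjustment, and ticks the estimates with each of the 4 root arrays left out. MYBC1, CHX16 and AT4G01460 have intervals below 0, and the ticks of every gene stay on the side of 0 of its estimate.

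The shoot differences were larger in size than the root differences for all 7 genes, which follows in part from choosing them on shoots. The root difference minus the shoot difference was -3.70 for AT2G41730, -2.46 for MT1C, 2.19 for AT3G26510 and 1.38 for AT4G01460. It was 0.93 for WRKY22, 0.92 for CHX16 and 0.41 for MYBC1. MYBC1 thus had the most similar differences between nitrogen and KCl in the 2 tissues. The sign was the same in both tissues for 6 genes, and AT2G41730 had opposite signs. These are values without a test, since the shoot contrast enters them.

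**Figure D3:**
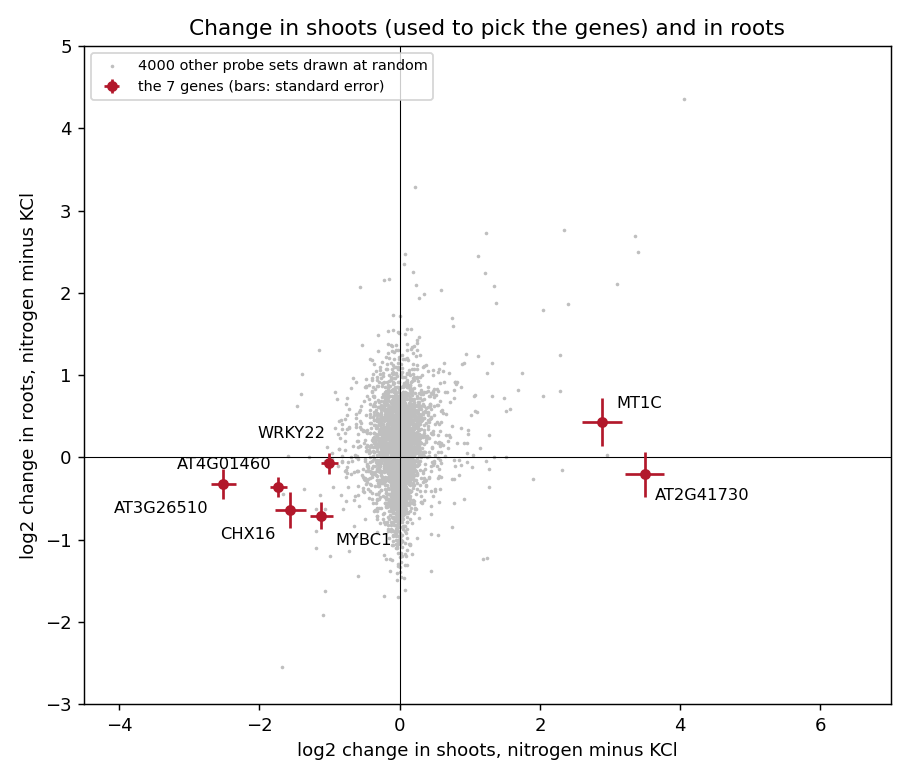
Log2 difference in shoots (horizontal axis) and in roots (vertical axis), nitrogen minus KCl, for the 7 genes with standard errors in both directions, over 4000 other probe sets drawn at random. The 7 genes lie far from 0 along the shoot axis, as they were chosen to, and between -0.71 and 0.43 along the root axis.

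Most of the 7 genes also differed in level between the tissues, and this is again a description, because the shoot controls were part of the choice. In KCl plants 5 genes had a lower signal in roots than in shoots: WRKY22 by -3.01 (log2, root minus shoot), AT3G26510 by -2.51, CHX16 by -2.49, AT4G01460 by -2.41 and AT2G41730 by -0.77. The root KCl values of AT4G01460, 4.70 and 4.62, lie about the 25th percentile of those arrays (4.69 to 4.75), so its tissue difference is uncertain and may be larger. The root values of AT2G41730 were also low, at 4.89 and 5.01 with KCl and 4.85 and 4.65 with nitrogen, so its tissue differences are uncertain too. MT1C was higher in roots by 3.50, an 11.3-fold difference, and MYBC1 by 1.18. In nitrogen plants the root minus shoot difference was -0.31 for AT3G26510, 1.04 for MT1C and -1.03 for AT4G01460, each smaller than in KCl plants. It was -1.57 for CHX16 and -2.08 for WRKY22, also smaller. For AT2G41730 it was larger, at -4.46, and so it was for MYBC1, at 1.59.

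The shoot value of 5 genes therefore lay nearer to the root KCl level with nitrogen than without. Among the 138 other probe sets called in shoots, 92 (66.7%) also differed toward the root KCl level. These were 43 of the 55 lower and 49 of the 83 higher ones, so the direction alone does not mark out these genes. For AT3G26510 the shoot difference was 100.5% of the gap between root and shoot controls, for MT1C 82.6%, for CHX16 62.6% and for WRKY22 33.3%. The values of AT2G41730 and MYBC1 lay further from the root level with nitrogen. The shoot difference and the tissue difference share the KCl shoot arrays, so these shares are a description only. Beside them, the 6 photosynthesis genes differed by -0.37 to -0.07 and the 11 peroxidase genes by -0.61 to 0.03 between nitrogen and KCl shoots, and their part in the result was not tested.

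**Figure D4:**
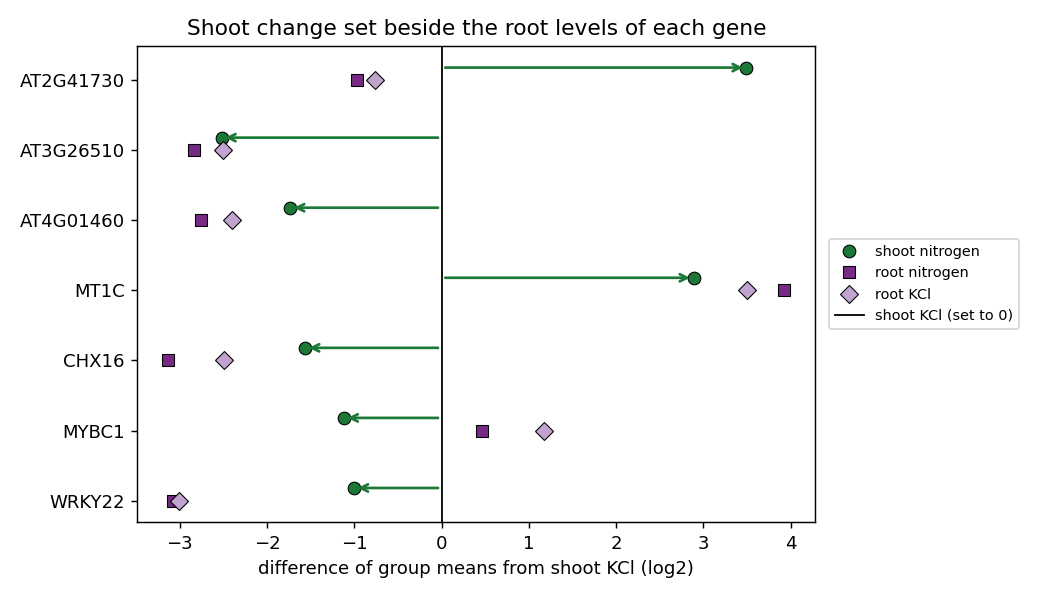
Group means of each gene as log2 differences from its mean in KCl shoots (horizontal axis), with arrows for the shoot change and markers for both root groups. The arrows of AT3G26510, MT1C, AT4G01460, CHX16 and WRKY22 point toward the root markers, and those of AT2G41730 and MYBC1 away from them.

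The order of the 4 group means differed among the genes. For AT4G01460, CHX16 and WRKY22 it ran from KCl shoots, the highest, through nitrogen shoots and KCl roots to nitrogen roots. AT3G26510 had the same ends, and its nitrogen shoots and KCl roots overlapped, with means of 8.43 ± 0.22 and 8.44 ± 0.30 (SD, n = 2 each). MT1C ran the other way, with nitrogen roots highest and KCl shoots lowest. AT2G41730 was highest in nitrogen shoots, and MYBC1 was highest in KCl roots and lowest in nitrogen shoots. No other neighbouring groups overlapped in these orders, with 2 arrays per group. For nitrogen against KCl, groups did not overlap for 57.3% of all probe sets in roots and 34.4% in shoots. No such share was taken for pairs across tissues, so this separation is not a result about these genes. The spread within groups varied too: 87.4% of all probe sets had a smaller within-group SD than MT1C and 85.5% a smaller one than AT2G41730, while only 7.65% did so beside AT4G01460 and 14.7% beside WRKY22.

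Over the 8 arrays, which share the tissue difference, AT4G01460 correlated with CHX16 at 0.974, with AT3G26510 at 0.957 and with WRKY22 at 0.934 (Pearson, n = 8 arrays). MT1C was their mirror image, at -0.983 with AT4G01460. AT2G41730 and MYBC1 correlated at -0.907 with each other, and each correlated with the other 5 genes at values between -0.654 and 0.508. The gene of most similar pattern on the array, taken by the highest Pearson correlation over the 8 arrays, was AT5G47610 for WRKY22 (0.997), AT3G60290 for CHX16 (0.997) and PAP85, which encodes a vicilin-like seed storage protein, for AT4G01460 (0.993). It was AT5G10770 for MYBC1 (0.983), AT5G35680 for MT1C (0.978), AT5G54300 for AT2G41730 (0.975) and AT5G62130 for AT3G26510 (0.969).

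These nearest genes shared the shape more than the size. PAP85 was at 5.0 and 5.19 in nitrogen shoots, against 6.72 and 6.54 in KCl shoots (-1.53), near the -1.73 of AT4G01460. AT5G47610 was at 7.86 and 7.76 in nitrogen shoots, against 8.96 and 9.22 in KCl shoots (-1.29). AT5G54300 differed by 1.19 in shoots where AT2G41730 differed by 3.49, and AT5G35680 by 0.50 where MT1C differed by 2.89. With 8 arrays in 4 groups such correlations describe a pattern of 4 means.

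Relatives of the 7 genes, taken by family or pathway, mostly did not pass the test. They were matched by symbol or locus code, and the annotation names only part of each family, so the counts cover the named members alone. Of 40 other genes measured, 1 was lower in shoots and 2 were lower in roots, with none higher, beside 0.264% and 4.44% of all probe sets called lower. Their median difference was -0.02 in shoots and -0.02 in roots, against -0.01 and 0.02 over all probe sets. No other metallothionein of the list was matched in the annotation.

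None of the 5 other WRKY genes matched was called in either tissue. WRKY6, which acts in senescence and phosphate responses, had the largest shoot difference. It was at 7.79 and 8.93 in nitrogen shoots, against 6.76 and 7.06 in KCl shoots (1.45 ± 0.37, adjusted p = 0.252). WRKY53 was also higher in shoots, at 0.63, while WRKY47 (-0.86 ± 0.22, adjusted p = 0.272), WRKY20 (-0.41) and WRKY42 (-0.09) were lower. The largest in roots was WRKY53, at -0.54 ± 0.33 (adjusted p = 0.301). Of the 5 other CHX genes matched, CHX20, known from guard cells, had the largest shoot difference. It was at 6.83 and 6.87 in nitrogen shoots, against 7.81 and 7.56 in KCl shoots (-0.84 ± 0.31, adjusted p = 0.565). CHX19 fell in roots by 0.57 ± 0.14 (adjusted p = 0.0439), with 4.26 and 4.36 on nitrogen root arrays and 4.98 and 4.80 on KCl root arrays. Both nitrogen values lie below the 25th percentile of those arrays, so the size of this fall is uncertain. The filter on dim probe sets removed CHX19. After quantile normalization the difference was -0.42 and was not called (adjusted p = 0.159). The fall was also not called with array weights, the replicate block or no moderation, but was with median centring and an intensity trend. It was called in 1 of the 8 fits that leave out an array, the one without the second KCl root array (adjusted p = 0.0334), and its adjusted p was up to 0.194 in the others, the highest without the first nitrogen root array.

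Among 17 other low-oxygen response genes, AT4G17670 was the called member in both tissues. It was at 4.64 and 4.65 in nitrogen shoots, against 6.50 and 6.16 in KCl shoots, and fell by 1.68 ± 0.25 (adjusted p = 0.0449). In roots it was at 5.68 and 6.22 with nitrogen, against 8.23 and 8.77 with KCl, and fell by 2.55 ± 0.25 (adjusted p = 0.00551). The root call held in all 8 fits that leave out an array (adjusted p up to 0.0474) and the shoot call in 0 of 8, with adjusted p from 0.0503 without either KCl root array to 0.413 without the first KCl shoot array. With all 8 arrays kept, the shoot call held with array weights (adjusted p = 0.0134), median centring, the dim filter and the intensity trend. It was lost with quantile normalization (adjusted p = 0.0770), the replicate block (0.0730) and no moderation (0.405). AT2G41730 itself differed in the opposite direction in shoots, and the 16 remaining genes of the list had shoot differences from -0.33 to 0.66.

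None of the 5 other group Ia bHLH genes was called. SPCH, which starts the stomatal lineage, differed most, with 0.40 ± 0.24 in shoots and -0.79 ± 0.24 in roots (adjusted p = 1 and 0.0752). None of the 6 other PB1 domain genes was called, and AT5G16220 differed most, with -0.28 ± 0.18 in shoots and 0.42 ± 0.18 in roots (adjusted p = 1 and 0.172). MYBC1 was placed in the list of circadian clock genes for comparison only, and the 2 clock genes measured were not called. GI, which controls flowering time and clock function, differed by 0.25 ± 0.17 in shoots, and the MYB-like gene AT5G52660 by 0.10 ± 0.15 in roots.

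**Figure D5:**
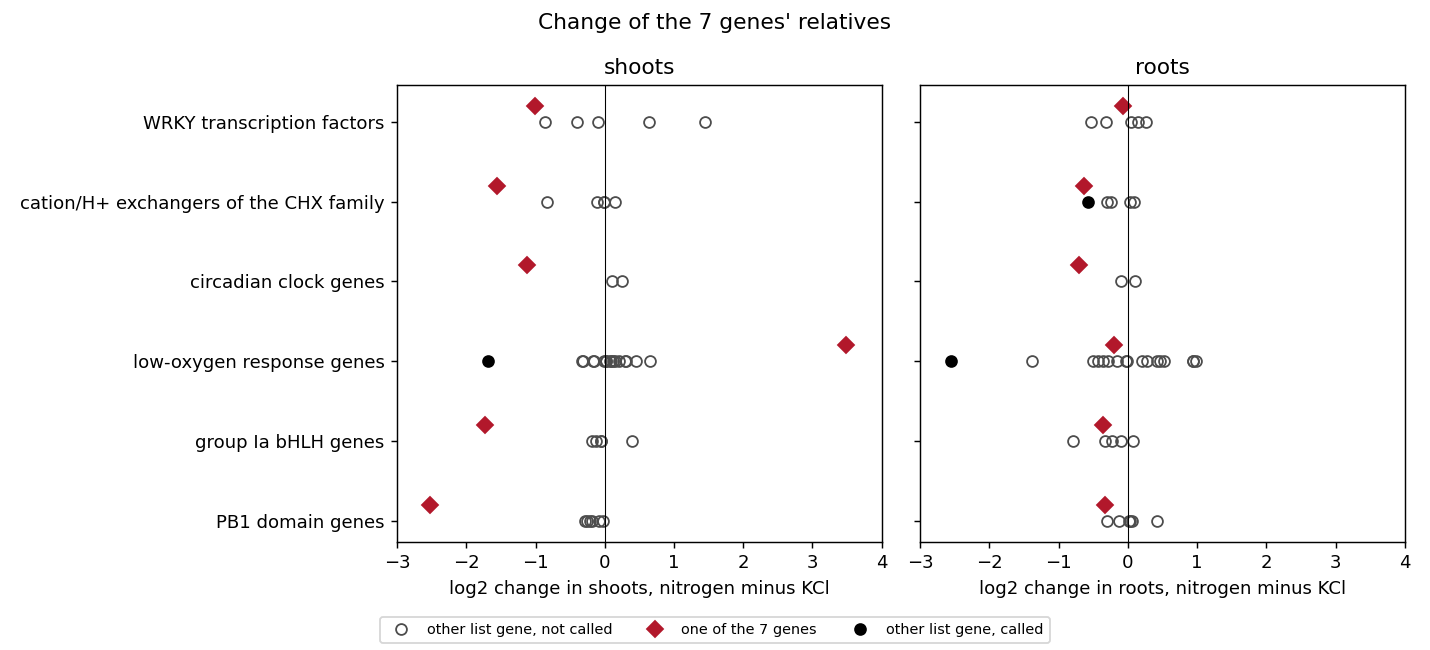
Log2 difference, nitrogen minus KCl (horizontal axis), in shoots (left) and roots (right) for the 7 genes' relatives by list (vertical axis); filled circles passed the test, open circles did not, and diamonds are the 6 of the 7 genes that have measured relatives. In shoots AT4G17670 is the only filled circle, and the open circles lie between -0.86 and 1.45.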

How the data were processed

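Signal was measured on 1-colour Affymetrix arrays. The deposited values are log2 expression per probe set, made by the authors with RMA, per the submitters' processing notes; its version is not given in the sources used here. They were used as deposited. The precision is limited by the number of arrays. Of 22810 probe sets, 64 controls were left out. In the platform annotation 13513 of the 22746 tested had 1 gene, 503 several and 8730 none. All 7 probe sets had a mean over the 8 arrays of at least 5, AT2G41730 and AT4G01460 only through their shoot values: the root means were 4.75 and 4.95 for AT2G41730 and 4.31 and 4.66 for AT4G01460 (nitrogen and KCl).

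All 8 Arabidopsis arrays were fitted with 4 group means in limma 3.58.1 (R 4.3.3), with moderated variances (4 residual degrees of freedom), two-sided p-values and Benjamini-Hochberg adjustment over all probe sets. Calls required an adjusted p under 0.05. The fit was also run on simulated data with independent noise and without the shift of the root KCl arrays. That run therefore cannot show how stable the root calls of the real arrays are. Alternatives were quantile normalization, median centring, a filter on dim probe sets, an intensity trend, no moderation, array weights, single-tissue fits, a replicate block and leaving out each array.

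The 7 genes and the lists of relatives were chosen with earlier results of these data known. Named are the 7 genes, from each list up to 4 called genes per contrast (or the 1 of largest difference), and for each gene the single gene of highest correlation. All 5 other WRKY genes matched and the tissue marker genes called in roots are named as well. Rice arrays were not used here.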

Additional observations from a re-analysis of the deposited data

Results flagged for a closer look

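AT2G41730 had estimates of opposite sign in the 2 tissues. Both nitrogen arrays lay above both KCl arrays in shoots and below them in roots. The root values were low, at 4.85 and 4.65 with nitrogen and 4.89 and 5.01 with KCl. The 25th percentiles of those arrays were 4.53 to 4.54 and 4.69 to 4.75. The root difference was small, at -0.20 ± 0.28 (log2, ± SE, 95% interval -0.86 to 0.45), and it was -0.06 after quantile normalization. Lower root values without overlap were found for 27.3% of all probe sets. An opposite response in roots is therefore not shown. The root difference minus the shoot difference was -3.70. This difference between tissues was not tested, since the gene was picked on shoots, and its root difference alone did not pass the test.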

How the results depend on the processing

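Of the 16 other fits, 10 leave a root difference as it is by construction. In the 6 that can move it, the root differences of all 7 genes kept their sign. The calls were less stable (limma throughout), and the cause was not tested. In roots 2589 probe sets were called (61.0% higher), against 1212 after quantile normalization, 1434 without dim probe sets, 270 with array weights, 1099 without moderated variances and 0 with only the 4 root arrays, where 4901 had an unadjusted p under 0.05. With arrays centred on their medians 40.8% of 2698 root calls were higher. Leaving out single arrays gave 124 to 6122 root calls: 124 and 153 without nitrogen root arrays 1 and 2, 6122 without KCl root array 1, 1505 without either nitrogen shoot array and 689 without either KCl shoot array. In shoots 145 were called, against 406 with array weights, 62 with only the 4 shoot arrays and 0 without moderated variances (1334 at an unadjusted p under 0.05). Leaving out single arrays gave 5 to 183 shoot calls: 5 without either KCl shoot array, 77 without nitrogen shoot array 2 and 67 without either nitrogen root array.

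With the replicate number as a block, 1389 probe sets were called in roots and 91 in shoots, and MYBC1 lost its root call (adjusted p = 0.0536). Nothing in the labels pairs the numbers, and deviations of same-numbered nitrogen and KCl arrays correlated at -0.118 in roots and -0.380 in shoots, and those of nitrogen root and nitrogen shoot arrays at 0.391. Blocking with the control numbers exchanged, chosen after seeing the data, gave 3331 and 126.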
